A study of Mus musculus with 2 samples.

Results

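Cells of a Zbtb16 knockout culture that held transcripts of Tdo2 but few or none of Postn were described against the other cells of that culture. The series has 2 droplet single-cell RNA libraries of the mouse embryonic stem cell line D3, both collected on day 6 of differentiation towards cardiomyocytes. The group Ctrl is D3 of wild-type genotype and the group Zbtb16_KO is D3 with a knockout of Zbtb16, a transcriptional regulator of the BTB zinc finger family. The labels give 1 library to each group and do not say how the knockout was made or how many clones it holds, so the 2 cultures cannot be told apart from the 2 genotypes. No value below has a replicate check, and all intervals are exact 95% intervals for counting error only.

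A knockout cell was counted as a member when it passed 4 limits, all set on measured transcripts. It had at least 3 unique molecular identifiers (UMIs, 1 for each captured transcript) of Tdo2. Its Postn level was under 50 CPM, where CPM is the count of a gene's UMIs per 1000000 UMIs of the cell or group of cells. It had under 3 UMIs of the cardiac actin gene Actc1, and under 4 UMIs in all of the mesenchymal genes Prrx1, Bnc2, Col14a1 and Tac2. The library has 9449 cells that reach 15000 UMIs and 500 genes and hold no more than 10% mitochondrial UMIs. Of these 616 were members, a share of 6.52% (Clopper-Pearson interval 6.03 to 7.04%). The whole series has 15803 such cells. In the control, 333 of 6354 cells passed the same limits (5.24%, 4.71 to 5.82%). Since these 7 genes chose the cells, their levels are given as a description, and they are left out of all counts of genes below.

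Tdo2 encodes tryptophan 2,3-dioxygenase, which opens the ring of tryptophan in the first step of the kynurenine pathway. The enzyme is best known from the liver, and its transcript is also known from the decidua of the uterus. Postn encodes periostin, a matrix protein secreted by mesenchymal cells and fibroblasts, among them those of the forming heart valves. Early cardiac mesoderm of the embryo gives rise to cardiomyocytes and to mesenchymal, smooth muscle and endothelial cells, and differentiating stem cells pass through similar mixtures.

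The Tdo2 limit alone was passed by 2898 knockout cells (30.7% of the library) and by 1013 control cells (15.9%). Adding the Postn limit left 1650 knockout cells, adding the Actc1 limit left 1640, and the mesenchymal limit left 616. The members were 21.3% (19.8 to 22.8%) of the knockout cells with at least 3 Tdo2 UMIs, and the control cells passing the rule were 32.9% (29.98 to 35.86%) of theirs. In the members Tdo2 ranged from 3 to 73 UMIs, with a median of 7, or from 42.8 to 1542 CPM, with a median of 239 CPM. Postn had no UMI in 442 of the 616. The limits on Tdo2, Postn and the mesenchymal sum did not fall in a gap of the data. Exactly 3 Tdo2 UMIs were held by 99 members, and 142 cells just outside had 2. Postn lay between 25 and 50 CPM in 127 members, against 81 outside cells between 50 and 100 CPM. The mesenchymal sum was 3 in 139 members and 4 in 130 cells just outside. For Actc1 no such count was made.

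**Figure D1:**
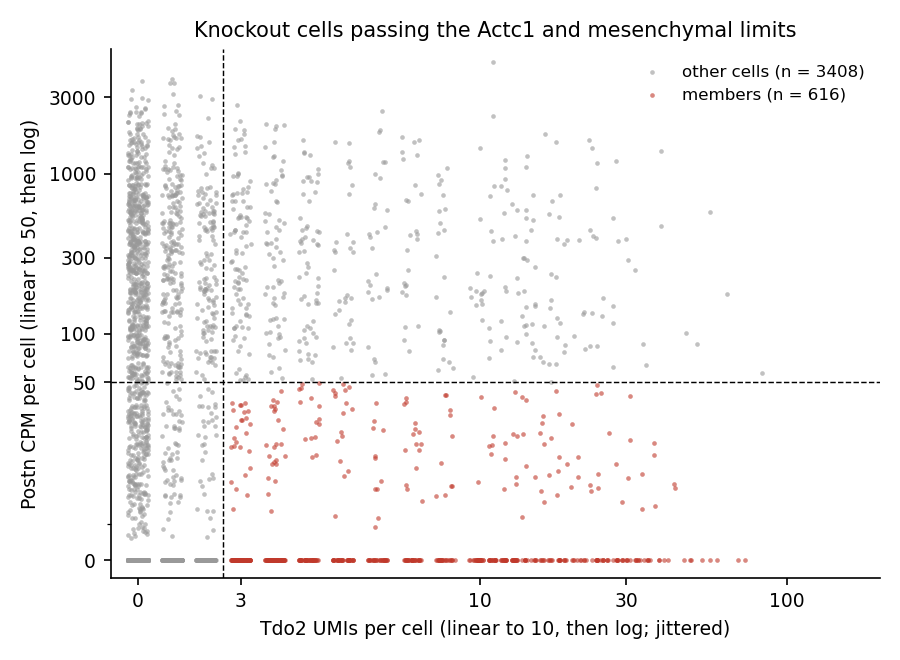
Each point is 1 knockout cell that passed the Actc1 and mesenchymal limits, by its Tdo2 UMIs (horizontal, linear to 10 and then logarithmic, jittered) and its Postn CPM (vertical, linear to 50 and then logarithmic). Dashed lines mark the limits of 3 UMIs and 50 CPM, and the 616 members (red) fill the lower right field with no gap at either line.

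Cells on the 2 sides of a limit had near levels for some genes and not for others. Across the Postn limit, cells at 25 to 50 CPM had 156 CPM of the collagen gene Col1a2 and 139 CPM of the proteoglycan gene Lum, and cells at 50 to 100 CPM had 165 and 130 CPM. Across the Tdo2 limit, cells with 3 UMIs had 1252 CPM of Ahnak and 1844 CPM of the glucose transporter gene Slc2a1, and cells with 2 UMIs had 842 and 1288 CPM. Prss35 stood at 27.3 CPM in the first and 27.1 CPM in the second, and Cbln1 at 8.23 and 6.78 CPM. Cells of other types were kept on both sides.

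The members were as deep as their neighbours. Their median was 29608 UMIs and 5790 genes per cell, with 5.09% mitochondrial UMIs, against 30560 UMIs, 5956 genes and 5.01% in the other 8833 knockout cells. The control cells passing the rule had a median of 43170 UMIs. At such depth the lower limit on Tdo2 UMIs is easier to reach. The upper limits on Actc1 and mesenchymal UMIs are easier to exceed, and the net effect on the share was not tested. The libraries shared 16 cell barcodes, of which 2 were members. Zbtb16 itself had 17 UMIs in 13 of the members (0.826 CPM) and 339 UMIs, or 19.8 CPM, in the control cells passing the rule. It stood at 1.00 CPM in the other knockout cells and at 22.4 CPM in the other control cells. The sources used here do not say where in the gene the knockout lies, so these counts show only that the 2 libraries differ in Zbtb16 transcripts.

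The markers given for these cells were Tdo2, Cbln1, Prss35 and Ahnak, and Tdo2, a gene of the rule, was the only one past 1.5-fold against the rest of the knockout library. Cbln1 encodes a secreted protein that organizes synapses, Prss35 a protein of the serine protease family, and Ahnak a very large scaffold protein. Cbln1 stood at 19.1 CPM in members and 18.9 CPM in the other knockout cells (ratio of CPM 0.907 to 1.12). Prss35 stood at 40.3 against 33.2 CPM (1.13 to 1.30), and Ahnak at 1263 against 1114 CPM (1.12 to 1.15). None of these 3 ratios reached 1.5-fold, the size used here for a call, so the cells are named here by their rule.

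Tdo2 was also present outside the members, as a level that differed between cell types. With every cell thinned to 15000 UMIs, 95.5% of members kept at least 1 Tdo2 UMI (100% before thinning, by the rule), against 37.0% of the other knockout cells (48.5% before thinning). The share was 7.52% (5.17 to 10.5%) in knockout cells with endothelial transcripts, whose median depth was 40117 UMIs, and 3.38% (1.37 to 6.84%) in cells with endoderm transcripts, at 46634 UMIs. RNA outside cells, read from barcodes with 10 to 100 UMIs, held Tdo2 at 75.1 CPM in that library. For Cbln1 the thinned share was 17.2% in members and 16.99% in the other knockout cells (27.9% and 27.7% before thinning), with 2.43% in the endothelial cells. Prss35 was seen in 38.5% of thinned members and 32.7% of the other thinned cells (57.1% and 50.97% before), with 3.16% in the endothelial cells.

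The list of tryptophan uptake and breakdown holds 16 genes, Tdo2 and 15 others, and 3 of the others reached 5 CPM in members or in the other knockout cells. These were Slc3a2, a subunit of amino acid transporters, at 86.9 CPM, Slc7a5, its partner that carries tryptophan, at 10.16 CPM, and Wars, which charges tryptophan onto its tRNA, at 28.9 CPM. The other knockout cells had 93.4, 10.03 and 29.04 CPM, so none of the 3 was past 1.5-fold. Afmid, the enzyme that acts on the product of Tdo2, stood at 3.65 CPM. The later enzymes Kmo and Acmsd had no UMI in any member. Over the 20569050 UMIs of all members, a count of 0 allows a level of up to 0.146 CPM (3 UMIs).

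Against all other knockout cells the members differed in few genes. Of 3525 genes at 50 CPM or more in either side, 2 were higher by 1.5-fold or more (0.0567%) and 29 were lower by that size (0.823%). The 2 higher genes were Dkk1, a secreted Wnt inhibitor, and Prkaa2, a catalytic subunit of the energy sensor AMPK. Dkk1 stood at 51.8 against 30.2 CPM (log2 ratio 0.76, ratio of CPM 1.61 to 1.83), with UMIs in 282 of the 616 members. Prkaa2 stood at 71.1 against 46.6 CPM (log2 ratio 0.60, 1.44 to 1.61). Next in order, all under 1.5-fold, came Foxf1, S100a6, Ptch1, Ppm1d, Rragd, Efhd2, Jdp2, Mid1ip1, Klhl13 and Dlc1. Foxf1, a forkhead factor of lateral and extraembryonic mesoderm, had 123 CPM in members and 82.1 CPM in the other cells, and Ptch1, the receptor of hedgehog ligands, had 107 and 74.3 CPM.

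The 12 lower genes with the largest ratios included the endoderm genes Spink1, Ttr and Rbp4, the pluripotency gene Dppa5a, the endothelial genes Ramp2, Ctla2a and Kdr, and Emb. Spink1 stood at 18.96 against 143 CPM, and Ttr at 9.82 against 70.8 CPM. Cells of other types were then left out of both sides (10 members and 865 other cells). They held at least 5 UMIs in sum of Cdh5, Tie1 and Esam (endothelial) or of Ttr, Apob, Amn and Foxa2 (endoderm). Others held as many of Pou5f1, Utf1 and Dppa5a (pluripotency) or of Hba-x and Hbb-bh1 (globin). The log2 ratio of Ramp2 went from -2.23 to -0.27 and that of Ttr from -2.73 to -0.06. Ttr and Dppa5a belonged to these sums, so the shrinking of their ratios was set in advance. Under that setting Spink1 and Ctla2a changed sign, to 0.03 and 0.10, Dppa5a, Rbp4 and Emb stood at -0.23, -0.48 and -0.45, and Kdr stayed past 1.5-fold at -1.18. Of the higher genes, Dkk1 stood at 0.73 and Prkaa2, at 0.47, was no longer past 1.5-fold.

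The other 4 of the 12 stayed past 1.5-fold in that setting. Twist1, a basic helix-loop-helix factor of mesenchyme, stood at 67.5 CPM in members and 142 CPM in the other cells (log2 ratio -1.06, and -1.20 with the other types left out). Sfrp1, a secreted Wnt antagonist, stood at 20.1 against 52.3 CPM (-1.34 and -1.49). Igfbp5, which binds insulin-like growth factors, stood at 17.1 against 54.1 CPM (-1.60 and -1.71), and Angpt1, the ligand of the receptor Tek, at 26.6 against 50.1 CPM (-0.89 and -1.04). With the other types left out, 1 of 3531 genes was higher (0.0283%) and 32 were lower (0.906%).

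The summed levels of the marker lists of other cell types moved with these differences. The 13 endothelial genes summed to 164 CPM in members and 336 CPM in the other knockout cells. In low-Postn cells with under 3 Tdo2 UMIs they summed to 833 CPM, and none of the genes was at 0 in members. The 12 endoderm genes summed to 156, 395 and 1211 CPM, the 10 pluripotency genes to 56.7, 170 and 606 CPM, with Esrrb at 0 in members, and the 9 blood genes to 117, 161 and 686 CPM. For some of these genes the UMIs in members lay in few cells: 80.8% of the Spink1 UMIs, 91.6% of the Dppa5a UMIs and 96.9% of the UMIs of the globin gene Hba-x were in the 7 members with most of them. Of these 7 members, no more than 1 held at least 5 UMIs of Hba-x and Hbb-bh1 in sum. Other genes were spread more widely. The 7 members with most held 29.6% of the Kdr UMIs and 48.9% of the Ramp2 UMIs, and 172 and 141 members had a UMI of these genes. The results below are given with and without such cells where their number is large.

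Gene lists were read at 5 CPM or more in either side, where 0.21% of 9977 genes were higher and 2.72% lower. Lower were 7 of 10 measured endothelial genes, 6 of 6 endoderm genes and 7 of 8 pluripotency genes, but only 5, 3 and 3 of the measured genes reached 5 CPM in members, and of these 2, 3 and 2 were lower. With cells of other types left out, 2 of 5 measured endothelial genes were lower and 1 higher. None of 2 endoderm and 2 pluripotency genes was then past 1.5-fold. Some genes of these lists also chose the cells left out. Of the 21 matrix genes none was past 1.5-fold, with a median log2 ratio of -0.07 against -0.01 for all genes. All 24 genes of S phase and all 22 genes of the later cell cycle lay within 1.5-fold, with medians of -0.01 and 0.06. Of 12 measured heart progenitor genes 5 were lower, among them Hand2 (75.6 against 134 CPM) and Gata5 (19.9 against 33.5 CPM), both transcription factors of heart mesoderm, while Hand1 stood at 1324 against 1241 CPM. Of 10 measured annexin, S100 and Ahnak genes, Anxa1 was higher, at 22.9 against 14.04 CPM, and with the other types left out its log2 ratio was 0.56 and none of the 10 was past 1.5-fold. The fibroblast growth factor genes Fgf3 (16.0 against 8.12 CPM) and Fgf15 (11.2 against 4.61 CPM) were higher, 2 of 10 measured genes of their list, and 1, Etv5, was lower. Fgf15 reached 5 CPM only in the members and Etv5 only in the other cells.

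**Figure D2:**
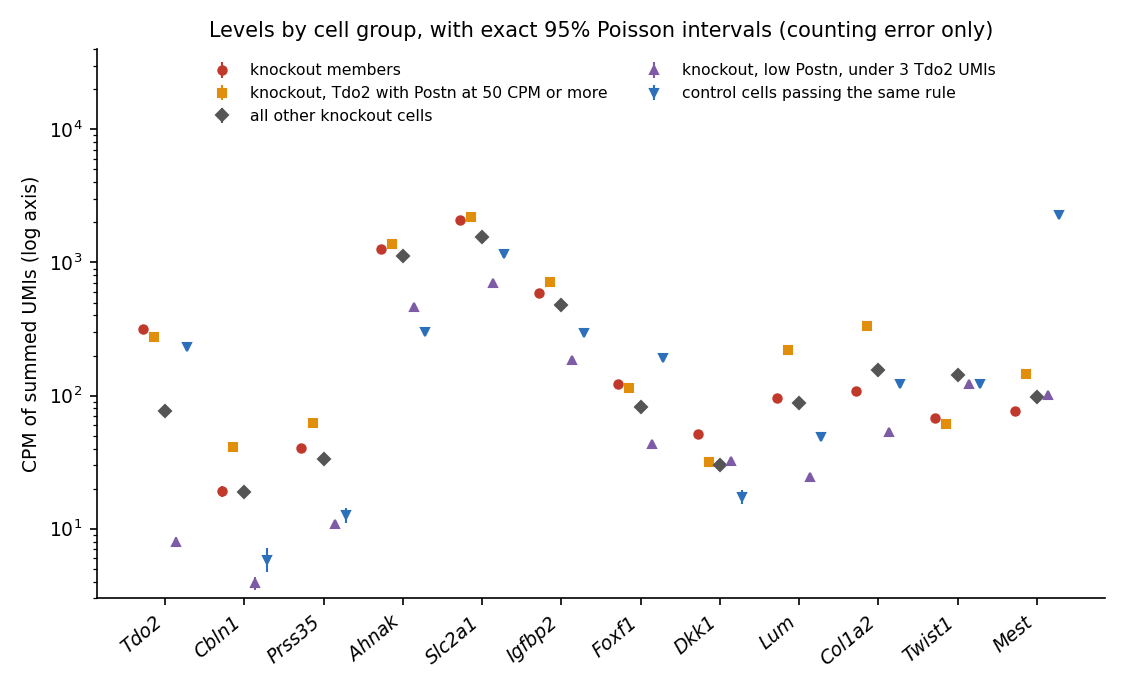
Levels of 12 genes in 5 groups of cells, as CPM of the summed UMIs on a log axis, with exact 95% Poisson intervals for counting error. Tdo2 chose the groups; Cbln1, Prss35, Lum and Col1a2 were higher in the Tdo2 cells with Postn at 50 CPM or more (squares) than in the members (circles), and Ahnak stood at 299 CPM in the control cells passing the same rule.

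The nearest cells were 451 knockout cells that passed all limits but that on Postn. Against these, 4 of 3560 genes were at least 1.5-fold higher in members (0.112%) and 47 were lower (1.32%). The 8 lowest included collagen genes. Col1a2 stood at 109 CPM in members and 331 CPM in the Postn-positive Tdo2 cells (log2 ratio -1.60, ratio of CPM 0.311 to 0.345), and Col3a1 at 125 and 333 CPM (-1.41). Lum stood at 95.8 and 220 CPM (-1.19). Gas6, a secreted ligand of TAM receptor kinases, stood at 95.5 and 238 CPM. Angpt1, Sfrp1 and Dcaf12l1 were also among the 8 lowest.

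Of the 21 matrix genes 7 were lower and none higher in that comparison, where 1.8% of 9852 genes at 5 CPM or more were lower and 0.761% higher. The median log2 ratio of the list was -0.35, against -0.01 for all genes. Fn1, fibronectin, stood at 851 against 1341 CPM, and Col5a2 at 58.9 against 118 CPM. Laminins and type IV collagens of the basement membrane were mostly within 1.5-fold: Lamb1 had 114 against 129 CPM and Col4a1 112 against 125 CPM, while Lama4 was lower at 55.4 against 89.5 CPM. Acta2, smooth muscle actin, was lower as well, at 880 against 1633 CPM. Of the given markers, Cbln1 was lower in members (19.1 against 41.1 CPM, ratio 0.407 to 0.527), as was Prss35 (40.3 against 62.4 CPM, 0.587 to 0.710), and Ahnak was within 1.5-fold (1263 against 1381 CPM).

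Higher in members were Tgfb2, Dkk1, Tagln and Hba-x. Tgfb2, a ligand of the TGF-beta family, stood at 192 against 99.3 CPM (log2 ratio 0.95, ratio of CPM 1.82 to 2.06), with UMIs in 528 members. Tagln, an actin-binding protein of smooth muscle, stood at 239 against 153 CPM, and 32.7% of its UMIs were in 7 members. Hba-x was led by the 1 member that held at least 5 UMIs of the embryonic globin genes Hba-x and Hbb-bh1. Below 1.5-fold followed Psat1, Dsg2, Abcg2 and Klhl13.

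The control library holds the same contrast in other cells: 333 cells passing the rule against 89 that failed only the Postn limit. Several of the genes above differed there by a similar size. Gas6 stood at 45.4 against 112 CPM (log2 ratio -1.28, and -1.31 in the knockout), Dcaf12l1 at 21.3 against 69.7 CPM (-1.67 and -1.31), and Tgfb2 at 283 against 156 CPM (0.86 and 0.95). For Col1a2 the log2 ratio was -1.44 there and -1.60 in the knockout, and for Lum -2.22 and -1.19. Sfrp1 and Dkk1 did not pass 1.5-fold in the control, at -0.21 and -0.01, against -1.33 and 0.69 in the knockout, and whether the libraries differ in them was not tested. In the control, 25 of 3375 genes were higher (0.741%) and 46 lower (1.36%).

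Another comparison, added after values had been seen, set the members against the 5363 knockout cells with at least 4 UMIs of Prrx1, Bnc2, Col14a1 and Tac2, the largest group of the library (56.8%). Of 3532 genes, 4 were higher in members (0.113%) and 32 lower (0.906%). Plxna4, a semaphorin receptor, stood at 19.5 against 58.4 CPM, Twist1 at 67.5 against 156 CPM (ratio 0.409 to 0.456), and Hand2 at 75.6 against 147 CPM. Igfbp5, Sfrp1, Angpt1, Rprm and Mab21l2 were the other lowest. The higher genes were Dkk1 (51.8 against 30.04 CPM), Tagln, Ccnd1 (60.9 against 38.8 CPM), which encodes the cell cycle protein cyclin D1, and Hba-x. Ahnak was at 1263 and 1310 CPM, and none of the 21 matrix genes was past 1.5-fold, where 0.466% of 9863 genes at 5 CPM or more were higher and 1.46% lower.

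Of the low-Postn knockout cells that passed the Actc1 and mesenchymal limits, 1938 had under 3 Tdo2 UMIs. They are called cells without Tdo2 for short, though 284 of them held 1 Tdo2 UMI and 142 held 2. The members differed from these in many more genes: 219 of 3706 were higher (5.91%) and 153 lower (4.13%). The 8 lowest were Apob, Igf1, Spink1, Ttr, Sox17, Dppa5a, Dpp4 and Cdh5, and 771 of the 1938 cells held at least 5 UMIs of such types. With these cells and the 10 members of the same kind left out, 23 of 3555 genes were higher (0.647%) and 32 lower (0.9%).

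Slc2a1, the main glucose transporter of many cells, was among the 8 highest in that narrower comparison and stood at 2111 CPM in members and 1148 CPM in the cells without Tdo2 (log2 ratio 0.88, ratio of CPM 1.81 to 1.86). Igfbp2 stood at 604 against 311 CPM (0.96), Lum at 98.4 against 48.3 CPM (1.01), and Ndrg1, a gene induced by low oxygen, at 58.9 against 25.7 CPM (1.16). Lrp2, the endocytic receptor megalin, stood at 126 against 62.05 CPM, and Mid1ip1, a regulator of fatty acid synthesis, at 150 against 72.4 CPM. Dcn and Jdp2 completed the 8 highest. Among the given markers, Cbln1 and Prss35 were higher, Cbln1 at 19.4 against 6.65 CPM (ratio 2.47 to 3.45) and Prss35 at 40.6 against 21.4 CPM (1.72 to 2.11), while Ahnak, at 1288 against 902 CPM (1.40 to 1.45), was under 1.5-fold.

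Of the genes lower in members, Twist1 stood at 67.6 against 205 CPM (log2 ratio -1.58), Hand2 at 77.3 against 166 CPM (-1.09) and its antisense neighbour Hand2os1 at 21.9 against 65.4 CPM (-1.54). The sources used here do not say how the counting treated strand, so these neighbours may share reads. Rspo3, Emb, Asb4, Cntfr and Rprm followed. Of 9 measured cardiomyocyte genes 7 were lower, where 2.95% of 9927 genes at 5 CPM or more were lower and 0.756% higher. Of these 7, 4 reached 5 CPM only in the cells without Tdo2, and of the 5 genes that reached it in both groups 3 were lower. All 8 measured posterior Hox and Cdx genes were lower, of which 5 reached 5 CPM in both groups and 3, Hoxa9, Hoxd9 and Hoxa10, only in the cells without Tdo2. Among the 5, Cdx2 had a log2 ratio of -1.50, Hoxc9 of -1.29 and Hoxb8 of -0.59. Most were low genes: over all members Hoxb8 stood at 33.5 CPM, Cdx2 at 15.9 CPM and Hoxc8 at 8.02 CPM. A cluster led by Hoxd11, Hoxc10 and Hoxa9 (cluster 7 of those described below) held 6.86% of all cells without Tdo2 and 0.974% of members. Such cells were not among the types left out, and their part in these ratios was not tested. The 11 posterior genes summed to 75.2 CPM in members and 81.9 CPM in the Postn-positive Tdo2 cells.

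**Figure D3:**
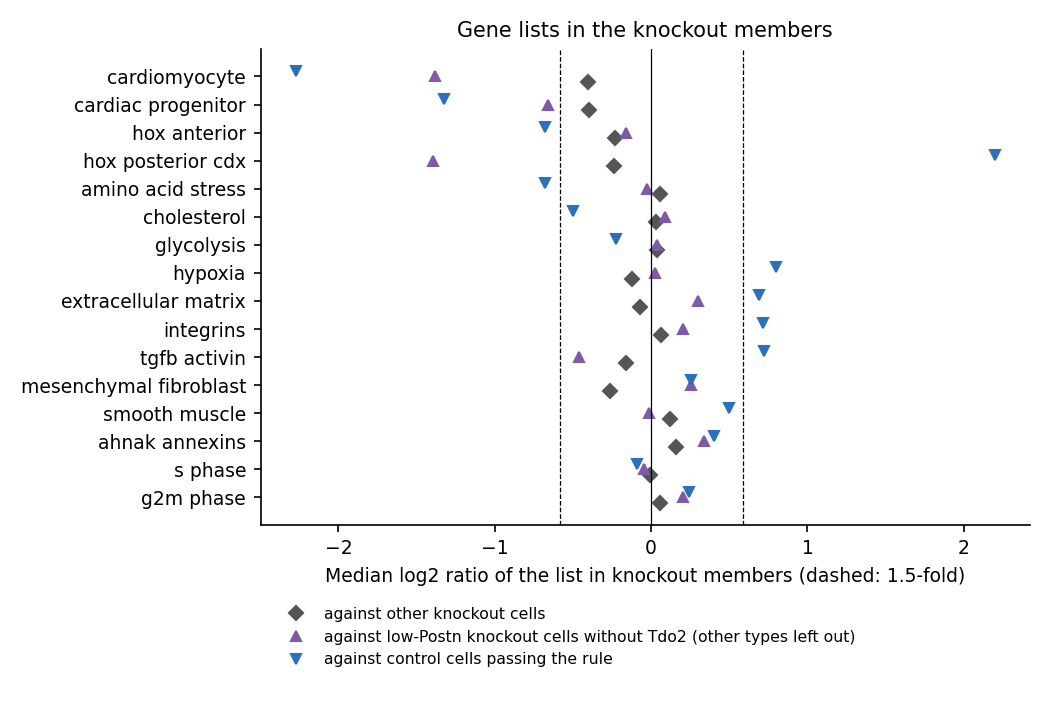
Median log2 ratio of 16 gene lists in the knockout members against 3 groups of cells; the dashed lines mark 1.5-fold, and the lists of endothelial, endoderm, blood and pluripotent cells are not plotted. Against the other knockout cells (diamonds) all medians lie inside the lines. Against the low-Postn cells with under 3 Tdo2 UMIs (labelled without Tdo2) the posterior Hox list lies at -1.40. Against the control cells the cardiomyocyte list lies at -2.27. Medians are over genes at 5 CPM in either group; over genes at 5 CPM in both, these 2 are -1.23 and -1.82.

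The contrast of passing cells with low-Postn cells under 3 Tdo2 UMIs was repeated in the control library, which shares no cell with the knockout. There 86 of 3384 genes were higher in cells passing the rule (2.54%) and 96 lower (2.84%), with the other cell types left out; with all cells kept, 80 of 3369 were higher (2.37%) and 87 lower (2.58%). Of 3086 genes at 50 CPM or more in each library's own contrast, with the other cell types left out, 15 were higher in the knockout and 81 in the control. All 15 were among the 81, which is 100% of the first list and 18.5% of the second. The knockout contrast alone had 23 higher and 32 lower genes, and those under 50 CPM in both control groups were left out of this overlap. Among them were Slc2a1 (log2 ratio 0.88 in the knockout and 1.75 in the control), Igfbp2 (0.96 and 2.39), Lum (1.01 and 2.04), Mid1ip1 (1.04 and 1.76), Foxf1 (0.67 and 1.04) and Ptch1 (0.74 and 1.18). Of 27 genes lower in the knockout and 49 in the control, 18 were shared (66.7% and 36.7%), with Twist1, Hand2, Gata4 and Tgfb2 among them. Across these genes Pearson's r was 0.69 and Spearman's rho 0.58, as a description: genes are not replicates, and both libraries came through 1 protocol. With all cells kept, and 3132 genes in both, 161 were higher in the knockout and 78 in the control, of which 68 were shared (42.2% and 87.2%).

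**Figure D4:**
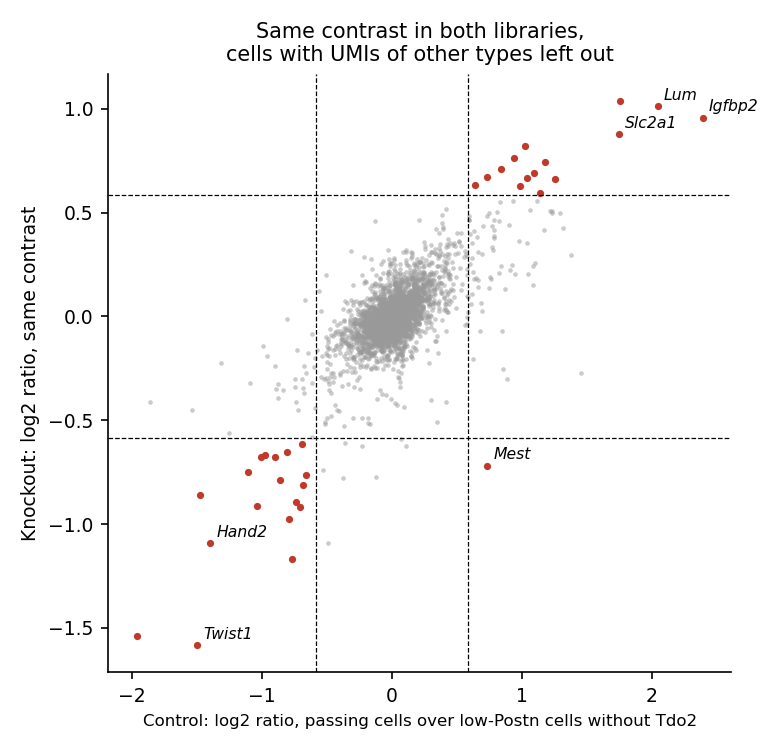
Each point is a gene, by its log2 ratio of cells passing the rule over low-Postn cells with under 3 Tdo2 UMIs, in the control (horizontal) and in the knockout (vertical), with cells holding UMIs of other types left out. Red points are past 1.5-fold in both libraries: 15 at upper right, 18 at lower left, and Mest at lower right with -0.72 in the knockout and 0.74 in the control.

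The same rule in the control also allowed a comparison of the knockout members with 333 control cells, added after values had been seen. Of 3657 genes 517 were higher in the knockout members (14.1%) and 135 lower (3.69%). With cells of other types left out, 526 of 3660 were higher (14.4%) and 137 lower (3.74%). Nearly the same shares were found in the cells outside the rule, where 534 of 3717 genes were higher in the knockout (14.4%) and 171 lower (4.6%). These counts therefore describe the 2 libraries and are not particular to the members, and with 1 library in each group they carry no test.

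Genes of contracting heart muscle were lower in the knockout members. All 8 measured cardiomyocyte genes were past 1.5-fold, where 5.28% of 9949 genes at 5 CPM or more were lower and 13.6% higher. Myl7, Myl4 and Smyd1 reached 5 CPM only in the control cells, and the 5 that reached it in both groups were all lower. Myl7, a myosin light chain of atrial muscle, had 4.86 CPM in the knockout members and 184 CPM in the control cells (ratio 0.0214 to 0.0322), and Tnnt2, cardiac troponin T, had 15.9 and 105 CPM. In the cells outside the rule, which include the Actc1-rich cells, these genes had 11.9 against 856 CPM and 21.7 against 358 CPM. Of 13 measured heart progenitor genes 10 were lower, or 8 of the 11 that reached 5 CPM in both groups, among them Mef2c (29.6 against 140 CPM) and Gata5 (19.9 against 91.9 CPM). Hoxb1, Crabp2 and Wnt2 were among the 8 lowest, and 6 of 7 measured anterior Hox genes were lower.

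Mest, an imprinted gene of embryonic mesoderm, was lower by far. It had 76.8 CPM in the knockout members, with UMIs in 97 of 616 cells and 51.8% of them in 7 cells, against 2284 CPM in the control cells (ratio 0.0319 to 0.0354). Outside the rule it had 97.2 CPM in the knockout and 1579 CPM in the control. Igf2, another imprinted gene and a growth factor, was higher in the knockout members, at 2667 against 705 CPM, and outside the rule at 2314 against 554 CPM.

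Matrix and adhesion genes were mostly higher in the knockout members. Of the 21 matrix genes 13 were higher (Col6a3 reached 5 CPM only in the members) and 2 lower. Their median log2 ratio was 0.69 against 0.04 for all genes. Of 10 measured integrin genes 6 were higher. Over all 9949 genes at 5 CPM or more, 13.6% were higher and 5.28% lower. These counts compare the 2 libraries and were not shown to be particular to the members. Fn1 stood at 851 against 419 CPM, Lama4 at 55.4 against 11.05 CPM and Itgb1 at 600 against 268 CPM, while Lama5 (7.34 against 14.9 CPM) and Tnc were lower, and so was Col3a1 of the mesenchymal list (125 against 258 CPM). Ahnak stood at 1263 against 299 CPM (ratio 4.097 to 4.351), and outside the rule at 1114 against 197 CPM. Cbln1 stood at 19.1 against 5.84 CPM and Prss35 at 40.3 against 12.6 CPM. Outside the rule both were also higher in the knockout by at least 1.5-fold. Wnt5a, a ligand of non-canonical Wnt signalling, stood at 65.1 against 11.3 CPM, Slc2a3, a glucose transporter, at 445 against 105 CPM, and Lrp2, Tgfbr3 and the histone gene Hist1h1e were among the 8 highest. Hba-x, first in that order, had no UMI in the control cells, where a count of 0 allows up to 0.175 CPM, and 96.9% of its UMIs lay in 7 members. Just 1 member held at least 5 UMIs of Hba-x and Hbb-bh1 in sum.

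Enzymes of cholesterol synthesis were lower where they differed. Of 9 such genes 4 were lower by 1.5-fold or more and none was higher (5.28% and 13.6% over the 9949 genes), with Fdps at 135 against 517 CPM and Fdft1 at 96.7 against 180 CPM. Of 7 measured genes of the amino acid response 4 were lower, against the same 5.28%, among them Asns (83.6 against 141 CPM) and Phgdh (71.1 against 136 CPM), which make asparagine and serine. Outside the rule Fdps stood at 134 against 377 CPM and Phgdh at 68.3 against 126 CPM.

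Within the members, cells with more Tdo2 differed from those with less in a few genes. The members were split into 3 parts by Tdo2 CPM, of 206, 205 and 205 cells, with median depths of 34217, 27144 and 28539 UMIs. Since each member held at least 3 Tdo2 UMIs, the lowest Tdo2 CPM could occur only in deep cells, so depth and part are linked by the rule. Of 3558 genes 8 were at least 1.5-fold higher in the top part than in the lowest (0.225%) and 15 lower (0.422%). Lum went over the parts from 70.4 to 98.3 and 124 CPM, and Prss35 from 30.2 to 42.9 and 50.1 CPM. Smoc2, a matrix protein that binds calcium, went from 228 to 285 and 357 CPM, and Mid1ip1 from 118 to 139 and 191 CPM. Twist1 went the other way, from 84.1 to 71.7 and 43.5 CPM, and Hand2 from 90.6 to 79.3 and 54.1 CPM. The histone gene Hist1h1b went from 276 to 175.8 and 175.5 CPM, and Ccnd1 from 76.1 to 56.4 and 46.7 CPM. Mest had 42.9, 78.0 and 117 CPM, but most of its UMIs lay in 7 cells. Cbln1 had no such order, at 19.6, 13.0 and 24.2 CPM, and Ahnak stood at 1209, 1227 and 1363 CPM. Among the lower genes were the globin genes Hba-x, Hbb-y and Hbb-bh1, of which Hba-x lay almost wholly in 7 members. Only 1 member held at least 5 UMIs of Hba-x and Hbb-bh1 in sum, so this difference in globin genes rests mainly on that cell.

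Knockout cells were clustered without the 7 rule genes and mitochondrial genes, so the genes that define a member played no part. On the remaining genes the members did not form a group of their own. Of 15 clusters, 6 held at least 5% of the members each, and the 5 with most held 81.5%. Cluster 1, led by Lum, Mxd4 and Dcn, held 21.3% of the members, cluster 2, led by Pttg1, Mest and Ccnb2, 20.6%, and cluster 0, led by the mitosis genes Ube2c, Nusap1 and Aspm, 16.9%. The Postn-positive Tdo2 cells were spread in the same way over these 3 clusters (21.5%, 21.3% and 16.2%), but 22.2% of them lay in cluster 3, led by histone genes and with Postn among its leading genes, against 11.9% of the members. In no cluster were more than 10.8% of the cells members. That cluster, 11, was led by Actc1, Myh7 and Myl7 and held 23 members.

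**Figure D5:**
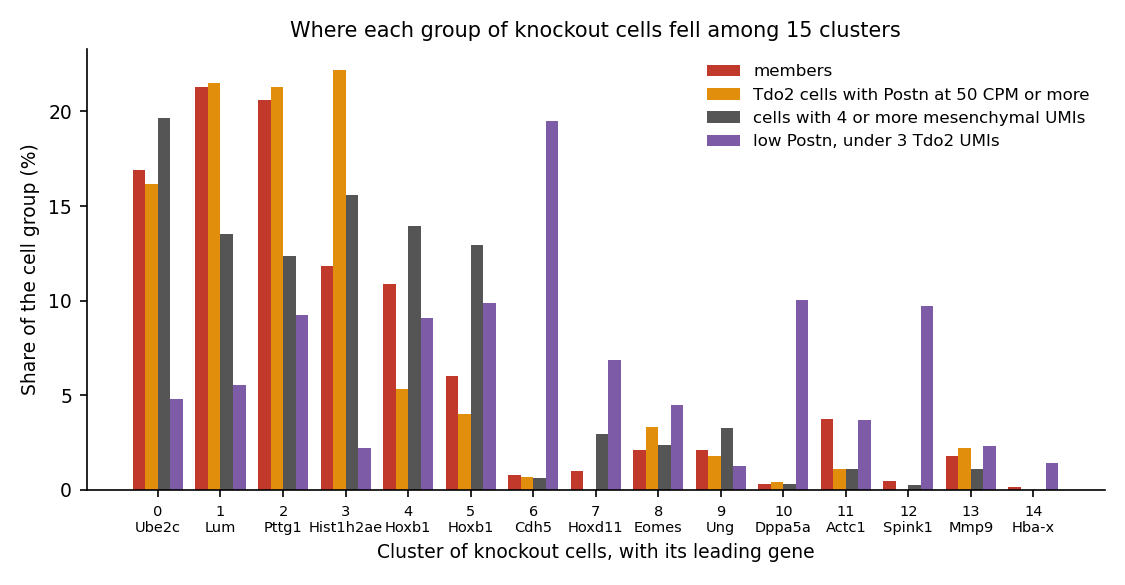
Bars show the share of 4 groups of knockout cells, in percent of each group, that fell in each of 15 clusters; the first leading gene of each cluster is given under its number. The members (red) follow the Tdo2 cells with Postn at 50 CPM or more (orange) over clusters 0 to 2, and low-Postn cells with under 3 Tdo2 UMIs (purple) peak at 19.5% in cluster 6, led by Cdh5.

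Clustered on their own, the members fell into 4 sub-clusters, named here by their leading genes. The largest (223 cells) was led by Nrk, Mxd4, Trp53inp1, Abca1, Pdcd4 and Sesn3. The second (152 cells) was led by the mitosis genes Ube2c, Prc1, Kpna2, Nusap1, Aurka and Cenpf, and was the deepest, with a median of 42681 UMIs. In the third (141 cells), globin genes, again mostly of few cells, led with Ctla2a and the histone gene Hist1h2ae. No more than 1 member held at least 5 UMIs of Hba-x and Hbb-bh1 in sum, and 81.7% of the Ctla2a UMIs lay in 7 members. In the fourth (100 cells), Ttr, Rbp4, Spink1, Atp1b1, Emb and Hoxb8 led, of which the first 3 had most of their UMIs in 7 members. Tdo2 itself differed little between them, from 253 CPM in the third to 350 CPM in the fourth. Lum ranged from 48.0 CPM in the third to 144 CPM in the first, and Ahnak from 1018 to 1385 CPM.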

How the data were processed

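Droplet libraries of the control and knockout cultures came from the DNBelab C Series kit of MGI and were read on a DNBSEQ instrument, per the labels' protocols. UMI counts, not normalized, for every gene and barcode are what the authors deposited, written by Cell Ranger 4 per the file headers. R 4.1.1 and both GRCm39 and mm39 are named per the submitters' processing notes. The sources used here do not say how intronic and multi-mapped reads were counted.

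Both unfiltered matrices (308465930 control and 357324373 knockout UMIs) were reduced to cells with at least 15000 UMIs, 500 genes and at most 10% mitochondrial UMIs. This removed 50 of 9499 knockout barcodes by the last 2 limits. No doublet caller was used. An alternative left out the deepest cells. UMIs were summed over each group of cells, scaled to CPM, and compared as log2 ratios of CPM plus a prior of 1. With 1 library in each group no test was made: a gene was called past 1.5-fold among genes at 50 CPM or more in either side (5 CPM for the 39 gene lists, where Ddit3 and Aldoa, with 2 rows each, were left out). Poisson intervals served for CPM, conditional binomial intervals for ratios of CPM and Clopper-Pearson intervals for shares. Ratios were checked on simulated sums with counting error only, which do not cover variation between cells or libraries. Clusters were made with scanpy 1.11.5 (2000 variable genes, 30 components, Leiden resolution 1; 1000, 15 and 0.5 for members), and TMM factors with edgeR 4.0.16. Rule genes and mitochondrial genes were kept out of both clusterings.

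Named genes were the 12 largest ratios in each direction against other knockout cells and 8 elsewhere. For lists, up to 4 genes by level and 2 by ratio could be named. The genes of the rule and name and Zbtb16 were always kept. Predicted, ribosomal and mitochondrial genes were left out. List genes named beyond this, and the genes shown for thinned cells and for the 3 parts, were chosen after their values were seen. The members, lists and tests were chosen with earlier results of these data known. One result that the rule for named genes would give is not reported here.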

Additional observations from a re-analysis of the deposited data

Results flagged for a closer look

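Genes stood out where the contrast of cells passing the rule against low-Postn cells with under 3 Tdo2 UMIs went past 1.5-fold in opposite directions in the 2 libraries. With all cells kept this was Crabp1, which encodes a retinoic acid binding protein, with a log2 ratio of 0.60 in the knockout and -1.06 in the control, a difference of 1.66. Its levels were 54.6 against 35.7 CPM in the knockout and 57.2 against 120 CPM in the control. With cells of other types left out it was Mest, with -0.72 in the knockout and 0.74 in the control, a difference of -1.45. Neither difference was tested, since each group has 1 library.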

How the results depend on the processing

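No paired analysis was possible because neither group holds more than 1 library. The share of members, the counts of genes past 1.5-fold, and the list medians and named genes' ratios against other knockout cells were recomputed under up to 21 other settings, 2 of them chosen after seeing the data. Clusters, sub-clusters, the 3 parts by Tdo2, the overlap between libraries and named ratios in the other comparisons were not recomputed. For the 14 named genes outside the rule past 1.5-fold against other knockout cells, 278 of 280 values kept their sign and 263 also stayed past 1.5-fold. Values under the filter at 10 CPM and under no filter are among the 280, and these settings cannot change a ratio. The exceptions in sign were Spink1 (0.0255) and Ctla2a (0.104) with other cell types left out. In that setting Ttr, Dppa5a, Ramp2, Rbp4, Emb and Prkaa2 also fell below 1.5-fold. Of the rule's own genes, which are description only, Bnc2 (0.0676) and Tac2 (0.283) changed sign with the Actc1 and mesenchymal limits left out. Counts are given as higher and lower, and the cause of a shift was not tested unless the setting itself changes the genes or cells counted. The share of members was 17.5% without the Actc1 and mesenchymal limits, 7.38% and 5.18% with Postn under 100 and 25 CPM, 8.02% and 4.61% with at least 2 and 5 Tdo2 UMIs, 7.07% with other types left out and 5.96% with at most 5% mitochondrial UMIs. Against other knockout cells, the 2 higher genes became 4 without those limits, 4 with 5% free RNA subtracted, 4 at 5% mitochondrial UMIs, 5 with thinned cells, 5 with at least 5 Tdo2 UMIs, and 1 with at least 2 Tdo2 UMIs, a higher UMI minimum, other types left out, equal weight per cell or a prior of 5 CPM. The 29 lower genes became 19 at 5% mitochondrial UMIs. Against Postn-positive Tdo2 cells, the 4 higher and 47 lower genes became 1 and 26 without the 2 limits, 1 and 27 with thinned cells, while the higher became 7 with at least 2 Tdo2 UMIs, 7 at 5% mitochondrial UMIs and 2 with equal weight. Against low-Postn cells without Tdo2, the 219 higher and 153 lower became 57 and 52 without the 2 limits, 62 and 50 with thinned cells, and 23 and 32 with other types left out, and the higher became 138 with equal weight. Against the mesenchymal cells, the 4 higher became 2 with Postn under 100 CPM, 2 with Tdo2 at 100 CPM, 1 with thinned cells, and 0 with 18 lower without the 2 limits. A filter at 10 CPM gave, higher and lower, 15 and 150 (other knockout cells), 42 and 133 (Postn-positive), 453 and 660 (without Tdo2), 28 and 103 (mesenchymal) and 1184 and 384 (control). No filter gave 37 and 612, 202 and 298, 691 and 1801, 90 and 241, and 1669 and 931. Low genes carry more counting error at a given depth.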

Other observations

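Some lists that no comparison above turned on also differed in their measured genes. Of 9 imprinted growth genes, 3 were lower in members than in Postn-positive Tdo2 cells and none was higher, where 1.8% of 9852 genes at 5 CPM or more were lower and 0.761% higher, among them Plagl1 at 9.97 against 24.6 CPM and H19, a non-coding RNA, at 7.78 against 24.3 CPM. In the same comparison Tek, the receptor of Angpt1, stood at 10.6 against 29.9 CPM. Against the control cells passing the rule, 13.6% of 9949 genes were higher and 5.28% lower. There 5 of 9 measured genes of the low oxygen list were higher, Ndrg1 at 58.4 against 24.4 CPM and P4ha1 at 87.4 against 49.8 CPM, and 2 were lower, Higd1a at 79.5 against 138 CPM and Adm at 2.38 against 5.61 CPM. Pdk1 reached 5 CPM only in the members and Adm only in the control cells, which leaves 4 higher and 1 lower of 7. Of 11 measured retinoic acid genes 6 were lower and 1 higher, but Rarb, Dhrs3 and Nr2f1, among the 6, reached 5 CPM only in the control cells.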
